A study of Mus musculus with 8 samples.

Results

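The probe sets described here are those of serpins and kallikreins, chosen because at least 1 of their gene symbols in the array annotation starts with Serpin, or with Klk followed by a digit. They number 50 of the 12422 probe sets on the array, 32 for serpins and 18 for kallikreins, and name 42 of 8949 genes, 28 serpins and 14 kallikreins. A probe set pools the signals of several short probes into 1 value for a transcript, and 6 of the 50 carry several gene symbols. The measurements are total RNA of mouse testis hybridised to Affymetrix arrays, with 8 arrays in 4 groups of 2. The groups are the house mice labelled Mus musculus castaneus, domesticus and musculus, and a group whose label after the species name is only ssp. No treatment, allele, age, strain or number of animals is stated in the labels, which call the 2 arrays of a group technical replicates. Every p-value therefore measures only the spread between replicate arrays of an RNA sample, and a difference is one of signal between these RNA samples. Probe sequences were not at hand, so how well each group's transcripts match the probes was not tested.

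Serpins are a large family of proteins, most of which inhibit serine proteases. An inhibitory serpin offers an exposed loop as bait, is cut by the protease and traps it in an inactive complex. Some members do other work: Serpinh1 is a collagen chaperone of the endoplasmic reticulum, and Serpina6 carries corticosteroids in blood. Kallikreins are secreted serine proteases of the trypsin fold. Mice carry a cluster of near-identical copies next to Klk1, the tissue kallikrein, all named Klk1b with a number, and several of these are known from salivary glands and from the Leydig cells of the testis.

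Values are intensities as deposited, on a linear scale already brought to a common mean, and group values are geometric means of 2 arrays. The 10th percentile of all intensities, 18.7, served as a floor, to which lower values were set before log2 was taken. Testing was limited to the 8874 probe sets at or above the 40th percentile of the array on 2 or more of the 8. Of the 50 serpin and kallikrein probe sets 34 passed, 22 of serpins and 12 of kallikreins, among them all 6 with several symbols. Intensities of different probe sets are not levels that can be set against each other. The letters f, i and r at the end of an identifier flag designs that can take up signal from family members or that relaxed the maker's selection criteria. All 12 tested kallikrein probe sets carry f or i, so a reading named for 1 copy can include others.

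Serpinb6a and Klk1b8 were the members that differed among the 4 groups. The threshold was an adjusted p under 0.05 by limma's moderated F test, with group means at least 1 apart on the log2 scale. Over all tested probe sets 1.76% passed it, 156 of 8874, and of the 34 members 2 did. At an unadjusted p under 0.05 there were 10 of 34 members, against 15.9% of all tested probe sets. The other 8 of these 10, whose adjusted p did not pass, belong to Klk1b1, Klk1b22, Klk1b26/Egfbp2, Klk1b5, Serpina1c, Serpina5, Serpinb1a and Serpinb6c. Of these 8, the probe sets of Serpina1c, Serpinb1a and Serpinb6c were tested only through groups in which they read higher. Group means were at least 1 log2 apart in 22 of the 34 members, against 38.7% of all tested probe sets, and the median range was 1.18 log2 over the members and 0.81 over all. Replicate arrays also lay further apart for the members in castaneus and ssp, with a median absolute log2 difference of 0.64 and 0.67 against 0.38 and 0.46 over all tested probe sets. In domesticus and musculus it was 0.39 and 0.38 for the members against 0.37 and 0.4. These shares and medians cover only members bright enough to be tested, and copies that share sequence are not independent.

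**Figure D1:**
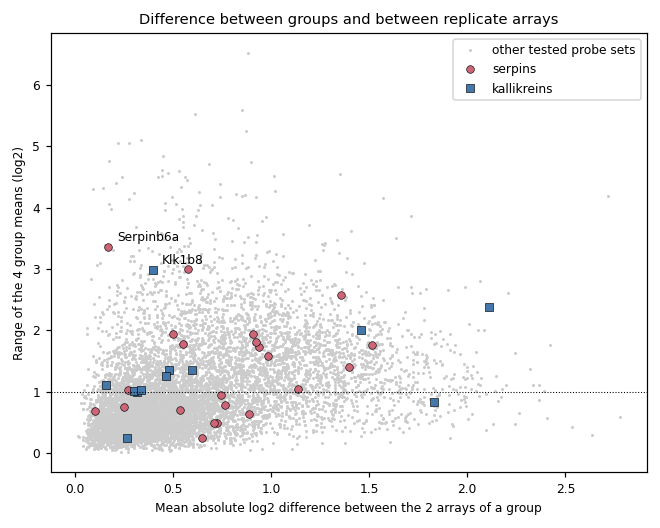
Range of the 4 group means (log2, vertical) against the mean absolute log2 difference between the 2 arrays of a group (horizontal), 1 point per tested probe set, with serpins as red circles, kallikreins as blue squares and all others in grey; the dotted line marks a range of 1. Serpinb6a, with a range of 3.36, and the called Klk1b8 probe set, with 2.99, combine wide ranges with close replicates, while the kallikreins farthest to the right are those whose 2 arrays of a group differ most, such as the other Klk1b8 probe set with a range of 2.38.

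Serpinb6a, an intracellular serpin of clade B, was lowest in domesticus and highest in musculus. It read 187.1 and 179.0 on the domesticus arrays, 751.8 and 809.3 in castaneus, 953.3 and 780.6 in ssp and 1738 and 2027 in musculus. The domesticus and musculus pairs each lay clear of the other 6 arrays, while castaneus and ssp overlapped. The geometric means were 183 (SD 0.05 log2, n = 2) in domesticus, 780 (SD 0.08) in castaneus, 862.6 (SD 0.20) in ssp and 1877 (SD 0.16) in musculus (limma's F test, adjusted p = 0.0164). Against domesticus, the differences of 2.09 log2 in castaneus (SE 0.24, adjusted p = 0.0352), 2.24 in ssp (adjusted p = 0.0256) and 3.36 in musculus (adjusted p = 0.00764) all passed limma's pair tests. The further 1.12 log2 from ssp to musculus (adjusted p = 0.124) and 1.27 from castaneus to musculus (adjusted p = 0.0864) did not pass, and castaneus and ssp were 0.15 apart (SE 0.24, adjusted p = 0.879). Serpinb6a was the single member specific to a group, meaning that it passed in 1 direction against each of the other 3, which 0.101% of tested probe sets did for domesticus. No member was specific to musculus, castaneus or ssp, against 0.214%, 0.124% and 0.124%. The summed intensity of the 7 measured spermatocyte markers, of 8 listed, was lowest in domesticus, at 51252 to 54818. It was 59120 to 59964 in musculus, 59884 to 70517 in castaneus and 65872 to 75260 in ssp. Unlike Serpinb6a, this sum was not highest in musculus. Its part in the Serpinb6a difference was not tested. The F test's adjusted p was between 0.0702 and 0.0995 without any 1 of the castaneus, domesticus and musculus arrays, and 0.0379 and 0.0426 without ssp replicate 1 or 2. The castaneus pair missed the threshold with arrays centred on their medians (limma adjusted p = 0.0513), with no filter (0.0582) and with the replicate number as a block (0.0667), and the ssp pair with the block (0.0562). Each of these ends the call as specific to domesticus, while the musculus pair passed in all of them (0.011 to 0.0234).

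Klk1b8 was highest in domesticus by the probe set 104497_f_at. It read 452.8 and 435.7 in domesticus, 101 and 108.6 in musculus, 70.8 and 44.3 in castaneus and 44.6 and 75.6 in ssp. The domesticus pair stood well above all other arrays, the musculus pair lay between, and castaneus and ssp overlapped. The domesticus mean of 444.2 (SD 0.04 log2, n = 2) was 7.93-fold that of castaneus (log2 difference 2.99, SE 0.36, limma adjusted p = 0.0381) and 7.65-fold that of ssp (adjusted p = 0.0316). The probe set met the filter on both domesticus arrays and 1 musculus array, so it was tested mainly through the group in which it was high. The 4.24-fold difference from musculus, at 104.7, did not pass (adjusted p = 0.0835), and the F test over the groups gave an adjusted p of 0.0371. Without any 1 of the 8 arrays that adjusted p lay between 0.055 and 0.169, with no filter on dim probe sets it was 0.0758, and with the replicate number as a block it was 0.0834. The other Klk1b8 probe set, 104496_i_at, did not show this order. It read 32 and 279.7 in castaneus, 125 and 370.3 in domesticus, 158.8 and 734.4 in musculus and 38.3 and 112 in ssp. The ssp pair lay below the domesticus and musculus pairs, the castaneus arrays spanned most of the others, the SD within a group was 1.09 to 2.21 log2, and the adjusted p was 0.635 (limma).

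Over the 6 pairs of groups, 2 of 34 members were called in at least 1 pair, against 2.33% of all tested probe sets. Castaneus with domesticus and domesticus with ssp were each called for Serpinb6a and Klk1b8, where 0.676% and 0.687% of all tested probe sets were called. Domesticus with musculus was called for Serpinb6a alone, against 0.744% overall. In castaneus with musculus, castaneus with ssp and musculus with ssp limma called 0 members, with 11, 2 and 8 at an unadjusted p under 0.05. Over all tested probe sets these 3 pairs had 0.947%, 0.349% and 0.98% called and 13.5%, 10.8% and 13.3% at an unadjusted p under 0.05.

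Many of the Klk1b copies read lowest in musculus. Of the 12 tested kallikrein probe sets, 6 had both musculus arrays below the other 6 arrays, which 6.67% of all tested probe sets had. Of the 22 tested serpin probe sets, 1 did. The 6 were those named for Klk1b1, Klk1b1/Klk1b2-ps, Klk1b21, Klk1b22 and Klk1b26/Egfbp2 and 1 of 2 for Klk1b5, and none of the 6 passed the F test after adjustment (adjusted p = 0.204 to 0.647 by limma), with 4 of them under an unadjusted p of 0.05. The 6 cannot be taken as independent readings, since all carry f and can take up signal from other copies. How much probe sequence they share was not measured. The Klk1b21 probe set met the filter on 1 castaneus and 1 domesticus array only, so it was tested through arrays on which it was high.

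The likeness of the copies can be seen upstream of their start sites. RefSeq promoters of build GRCm38.p6, running from 250 bases before to 50 after the annotated start, were at hand for 13 Klk1b genes and for 37 of the 42 member genes. The 7 stretches shown are 66 bases long and end before the start, on the plus strand of chromosome 7, and belong to copies with a probe set tested here. Capitals mark TTTAAA, a variant of the TATA box.
Klk1b1: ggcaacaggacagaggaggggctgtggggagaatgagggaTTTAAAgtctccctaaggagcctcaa
Klk1b22: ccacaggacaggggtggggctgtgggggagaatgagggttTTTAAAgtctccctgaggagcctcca
Klk1b26: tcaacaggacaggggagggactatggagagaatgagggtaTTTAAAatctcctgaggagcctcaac
Klk1b16: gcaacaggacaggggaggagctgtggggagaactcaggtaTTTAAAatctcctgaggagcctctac
Klk1b5: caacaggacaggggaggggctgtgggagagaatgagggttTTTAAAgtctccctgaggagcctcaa
Klk1b8: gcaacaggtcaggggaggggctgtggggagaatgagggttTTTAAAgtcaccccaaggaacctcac
Klk1b9: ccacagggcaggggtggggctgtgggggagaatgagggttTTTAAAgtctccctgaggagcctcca

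They lie at chr7:43966678-43966743 for Klk1b1, chr7:44112593-44112658 for Klk1b22, chr7:44012612-44012677 for Klk1b26, chr7:44137211-44137276 for Klk1b16, chr7:44216392-44216457 for Klk1b5, chr7:43950582-43950647 for Klk1b8 and chr7:43975988-43976053 for Klk1b9. When aligned in pairs, 54 to 65 of the 66 bases were identical, with a median of 57 over 21 pairs. Klk1b22 and Klk1b9 were the closest, at 65. The letters TTTAAA, which read the same on both strands, stood in 13 of 13 Klk1b promoters, in 3 of 26 promoters of the member serpins and in 13.2% of the 32851 promoters of the table. TATAAA on either strand stood in 0 of the 13 Klk1b promoters, 4 of the 26 serpin promoters and 13.6% of all. TGTTCT, a short element bound by steroid receptors such as the androgen receptor, stood on either strand in 2 of 13, 8 of 26 and 19% respectively. The stretches of Klk1b26 and Klk1b8 were the least alike, at 54.

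The probe set 95775_f_at carries Klk1b1 as its single symbol, though its f design can take up signal from other copies. It read 7460 and 5367 in castaneus, 5517 and 7806 in domesticus and 5453 and 7120 in ssp, but 2314 and 3287 in musculus. The 6 arrays of the other groups overlapped one another and the musculus pair lay below them. The musculus mean of 2758 (SD 0.36 log2, n = 2) was 2.38-fold below that of domesticus (log2 difference 1.25, SE 0.34, limma adjusted p = 0.207), 2.29-fold below castaneus (adjusted p = 0.208) and 2.26-fold below ssp (adjusted p = 0.213).

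A probe set shared by Klk1b1 and the pseudogene Klk1b2-ps had the same order at its lower end. It read 599.9 and 578.3 in musculus, 676 and 1112 in domesticus, 846.5 and 1053 in ssp and 1108 and 1250 in castaneus. Klk1b22, which encodes a protein that binds epidermal growth factor in the salivary gland, had close replicates throughout. It read 529.6 and 571.4 in musculus, 799.3 and 904.1 in ssp, 859.8 and 1093 in domesticus and 1190 and 1183 in castaneus, so the musculus pair lay lowest and the castaneus pair highest with no overlap. Musculus was 2.16-fold below castaneus (SE 0.25 log2, limma adjusted p = 0.125).

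The probe set of Klk1b26 and Egfbp2, another kallikrein copy named for binding epidermal growth factor, read 213.2 and 265.5 in musculus. It read 371.2 and 579.2 in ssp, 415.8 and 490.7 in domesticus and 477.9 and 783.3 in castaneus, all above the musculus pair. The largest difference, from castaneus, was 2.57-fold (adjusted p = 0.183 by limma). The probe set of Klk1b21 read 41.4 and 31.5 in musculus and 97.6 and 85.7 in ssp, but 58.1 and 286.3 in castaneus and 406 and 52.5 in domesticus, where the replicates are far apart. Klk1b16 had its lowest mean in musculus, at 140.5 and 181.6, with 1 of the ssp arrays, at 171.8, inside the musculus range. Its other readings were 287.1 in ssp, 265.8 and 278.7 in castaneus and 321 and 325.9 in domesticus.

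A probe set with Egfbp2 as its single symbol, also of the f design, falls outside the naming rule and was looked up after the values were seen. It read 17.2 and 86.3 in musculus and 308.1 to 524.4 on the other 6 arrays, and its adjusted p by limma's F test was 0.122.

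**Figure D2:**
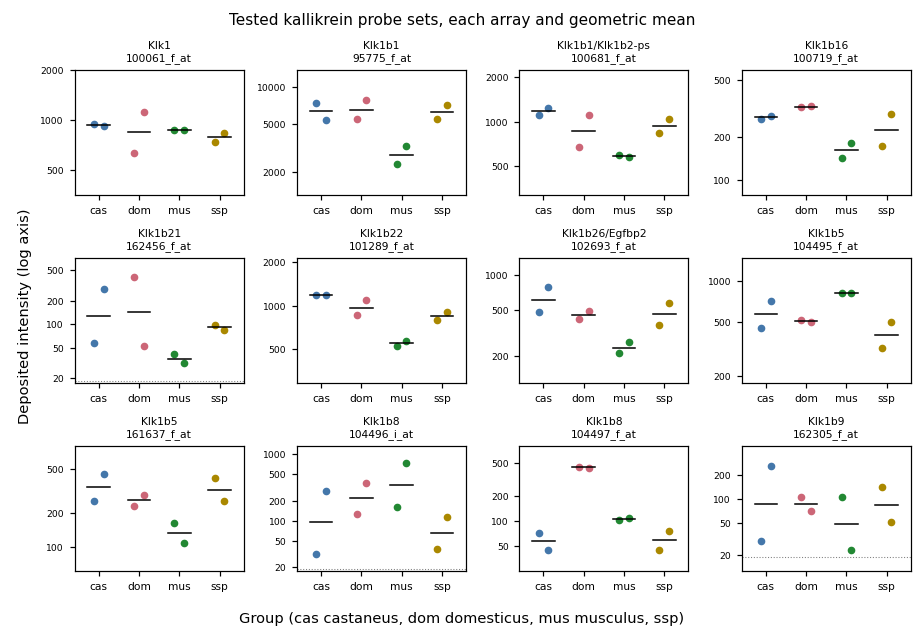
Deposited intensity (log axis) of the 12 tested kallikrein probe sets on every array, with the groups along the horizontal axis, points for single arrays, a bar for the geometric mean of 2 arrays and a dotted line for the floor of 18.7 where it falls in range. The musculus points lie below all others in 6 panels, while the domesticus points stand apart at the top for Klk1b8 104497_f_at.

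Not every kallikrein reading had this order. The 2 probe sets of Klk1b5 went opposite ways. The first, 104495_f_at, read 805 and 816.6 in musculus against 320.6 to 707.8 on the other arrays, with musculus above all others. The second, 161637_f_at, read 162.3 and 108.6 in musculus against 233.8 to 450.4 elsewhere, with musculus below all others. Neither passed the F test (limma adjusted p = 0.41 and 0.311). Klk1, the tissue kallikrein itself, had the closest group means of the kallikreins. Its probe set read 923.8 to 949 in castaneus, 636 and 1123 in domesticus, 869.2 to 871.4 in musculus and 735.6 and 841.2 in ssp. The range of its group means was 0.25 log2, and the arrays of domesticus alone spanned those of all other groups. Klk1b9 had replicate differences too wide for an order, with 29.7 and 259.3 in castaneus alone.

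Markers of Leydig cells read higher in musculus, where most of the Klk1b copies read lower, and 2 of their 12 probe sets passed the F test. Of 10 listed markers 9 were measured, all but Lhcgr, by 12 tested probe sets, and 7 of the 12 had both musculus arrays above the other 6, which 6.37% of tested probe sets had. Their summed intensity was 15874 to 16631 in musculus, 5394 to 6953 in castaneus, 6216 to 6266 in domesticus and 4468 to 5107 in ssp. Against the mean of the other 6 arrays, the median difference in musculus was 0.95 log2 over these 12 probe sets, -0.78 over the 12 tested kallikreins and 0.01 over all tested probe sets. Both musculus arrays lay below that mean for 8 of the 12 kallikrein probe sets and above it for 3, against 30.3% and 33.4% of all tested probe sets. In bulk tissue, fewer cells of a type and less RNA per cell cannot be told apart.

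**Figure D3:**
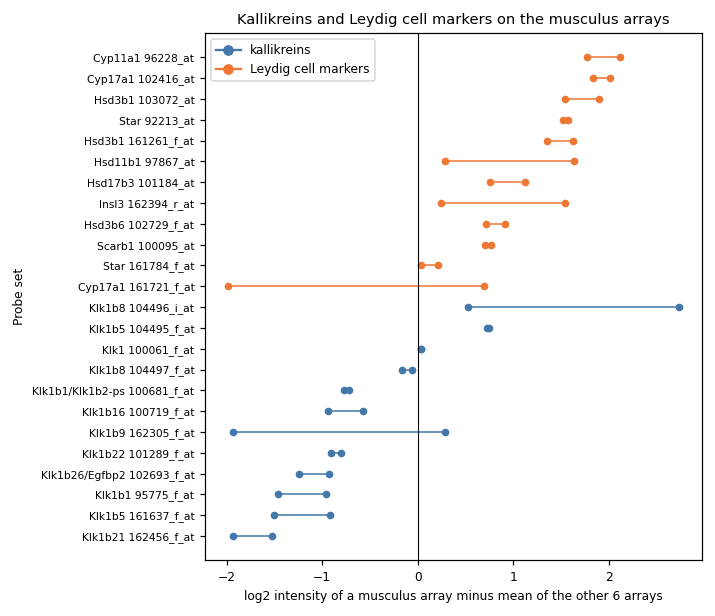
log2 intensity of each of the 2 musculus arrays minus the mean of the other 6 arrays (horizontal), 1 row per tested probe set, for kallikreins in blue and Leydig cell markers in orange; the line joins the 2 arrays. Most kallikrein rows lie left of 0 and most marker rows right of it, with medians of -0.78 and 0.95, and Klk1b5 104495_f_at and Klk1b8 104496_i_at are the kallikrein rows clearly right of 0.

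Other tissue markers also stood apart in musculus. The 9 measured macrophage markers, of 10 listed, summed to 4738 to 5679 in musculus, 3296 to 3309 in domesticus, 2708 to 3509 in ssp and 2472 to 2565 in castaneus. The 2 measured red blood cell markers, of 4, summed to 13970 to 17682 in musculus and 1558 to 5394 in the other groups. Markers of salivary gland and pancreas, 5 measured of 9, had their lowest sum in musculus. It was 436.7 to 513.9 in musculus, 607.6 to 704.5 in ssp, 935.4 to 1016 in castaneus and 1505 to 1607 in domesticus. Of their 5 tested probe sets, 1 had both musculus arrays below the other 6, against 6.67% of all tested probe sets. The part of these markers in the kallikrein readings was not tested. Egf, the epidermal growth factor that some kallikrein copies bind, is one of these gland markers and was called by the F test. It read 324.8 and 504.5 in domesticus and 206.1 and 236.1 in castaneus, but 15.1 and 31.8 in musculus and 23.9 and 33 in ssp. Its lower musculus reading was below the floor of 18.7.

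Among the 34 tested members, array pairs of groups besides musculus also lay clear of the other 6 arrays. Domesticus arrays lay above in 6 members, 4 of them serpins (6.13% of all tested probe sets), and below in 2 serpins (5.47%). Among the 6, Serpinb9 was tested only, and Klk1b8 104497_f_at mainly, through the domesticus arrays on which they were high. Castaneus lay above in 3 members, 2 of them serpins (5.74%), and below in 0 (5.43%). The ssp arrays lay above in 2 serpins (6.42%). These were Serpinb1a and Serpinb6c, tested mainly through the ssp arrays on which they were high. Both ssp arrays lay below the other 6 in 0 members, so in 0 of 12 kallikreins (5.17% of all tested probe sets).

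Among the serpins of clade A, which are mainly secreted inhibitors, Serpina5 was measured by 2 probe sets, both tested. It encodes protein C inhibitor, which is made in the male reproductive tract and is needed for sperm formation in mice. Its probe set 101187_at read 2097 and 2520 in castaneus, 1307 and 1621 in musculus, 1387 and 1716 in ssp and 1050 and 1201 in domesticus. The castaneus pair lay above and the domesticus pair below all other arrays, a 2.05-fold span (limma adjusted p = 0.286). The other Serpina5 probe set, 161259_f_at, put domesticus highest, at 655.7 and 688.6 against 380.7 to 487.8 on the other 6 arrays (adjusted p = 0.362). The order of domesticus for this gene thus depended on the probe set.

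Serpina1 encodes alpha-1-antitrypsin, the main elastase inhibitor of plasma, and exists in mice as several copies. It had 7 probe sets, all tested, of which 3 carried several of the copies. The one with the widest range was Serpina1c 100329_at, at 159.6 and 121.4 in castaneus, 149.5 and 151.1 in ssp, 69.7 and 16.9 in domesticus and 15.1 and 18 in musculus. Both musculus arrays and 1 domesticus array were at the floor. The probe set met the filter on the castaneus and ssp arrays only, the groups in which it was high. The ssp mean was at least 8.04-fold and the castaneus mean at least 7.44-fold that of musculus, and neither pair passed (limma adjusted p = 0.0955 and 0.0957).

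The other Serpina1 readings were less clear. The probe set of Serpina1a to Serpina1d, 93109_f_at, read 281 and 499.1 in castaneus, above all of 210.7 and 145.5 in domesticus, 64.8 and 145 in musculus and 111.6 and 240.9 in ssp. That of Serpina1a, Serpina1c and Serpina1d read 188 and 141.1 in castaneus, 32.4 and 117.7 in domesticus, 147 and 53.1 in musculus and 53.6 and 192.8 in ssp, with all groups overlapping. The one shared by all 5 copies read 143.7 and 149.9 in domesticus, above 97 and 108.9 in musculus, 43.9 and 130.2 in castaneus and 120.2 and 53 in ssp. The lowest group mean was that of musculus in 5 of the 7 and the highest that of castaneus in 4, and none of the 7 passed the F test (1 at an unadjusted p under 0.05, limma). The 11 measured liver and plasma markers, of 11 listed, summed to 1057 to 1380 in castaneus and 2175 to 2695 in musculus. The sums were 2424 to 2809 in domesticus and 1745 to 1879 in ssp. Among these markers Fgg fell below the floor at its lowest, and the part of the markers in the Serpina1 readings was not tested. Of the remaining tested clade A probe sets, those of Serpina3n, Serpina6 and Serpina10 ran from 80.9 to 590.4 and did not pass.

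In clade B, whose members mostly act inside cells, readings besides Serpinb6a were dim. Serpinb9, an inhibitor of the cytotoxic protease granzyme B, read 236.5 and 157.4 in domesticus, 90.6 and 15.3 in castaneus, 23.4 and 67.8 in musculus and 46.5 and 22.7 in ssp. Domesticus lay above all other arrays and was the single group through which the probe set met the filter, and the 5.94-fold range rested on values near the floor, with 1 castaneus array at it (limma adjusted p = 0.368). A probe set shared by Serpinb9e, Serpinb9f, Serpinb9g and Serpinb9h did not follow it, at 105.4 and 128.2 in castaneus, 231.9 and 87.6 in domesticus, 270 and 117.9 in musculus and 187.3 and 212.3 in ssp.

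Serpinb1a, an inhibitor of neutrophil proteases, read 110.9 and 111.6 in musculus and 117.7 and 119.5 in ssp, and lower in domesticus, at 36.8 and 52.1, and castaneus, at 51.5 and 8.6. The former groups lay clear of the latter, a 3.82-fold span with 1 castaneus array at the floor (limma adjusted p = 0.187). The Serpinb1a probe set met the filter only in the former groups, on both ssp arrays and 1 musculus array. Serpinb6c, a copy related to Serpinb6a, was lowest in castaneus and highest in ssp, with group means of 53.8, 63.9 in musculus, 112.9 in domesticus and 185.1 in ssp (adjusted p = 0.286). Its probe set met the filter only on both ssp arrays and 1 domesticus array, and it did not have the order of Serpinb6a.

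**Figure D4:**
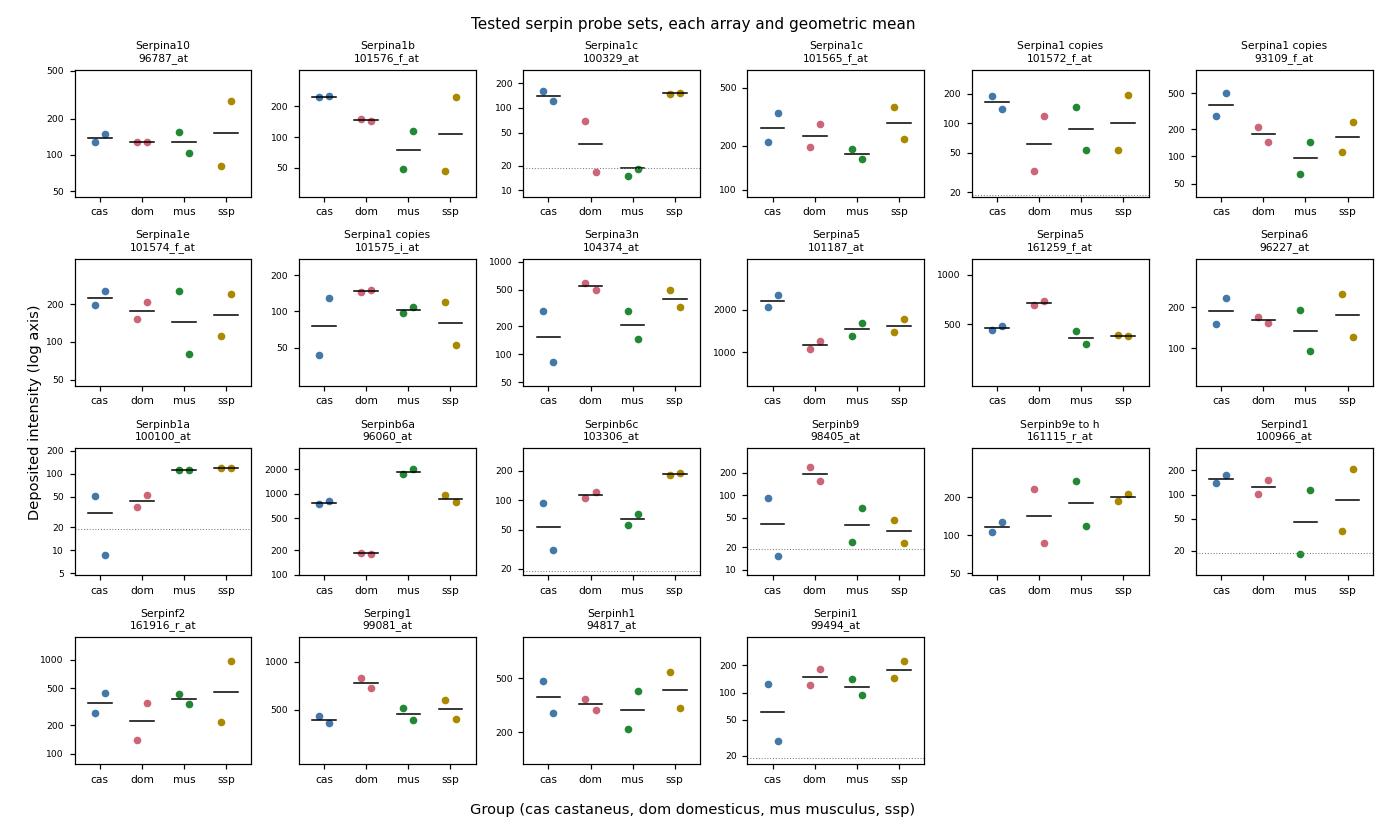
Deposited intensity (log axis) of the 22 tested serpin probe sets on every array, with the groups along the horizontal axis, points for single arrays, a bar for the geometric mean of 2 arrays and a dotted line for the floor of 18.7 where it falls in range. Serpinb6a runs from 179.0 to 2027 with close replicates, whereas in panels such as Serpind1 and Serpini1 the 2 arrays of a group differ as much as the groups.

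The remaining clades had 5 tested probe sets in all. Serping1, the inhibitor of complement component C1, read 788.1 and 685.7 in domesticus, above 457.9 and 414.4 in castaneus, 517.2 and 431.2 in musculus and 577.8 and 439.2 in ssp, a 1.69-fold range (limma adjusted p = 0.418). Serpinh1 had group means from 291.2 in musculus to 407.7 in ssp and arrays from 209.9 to 552.9, with all groups overlapping. Serpind1, heparin cofactor II, ran from 18.2 to 209.3, Serpini1, the neuronal serpin neuroserpin, from 29.2 to 226, and 1 probe set of Serpinf2, the inhibitor of plasmin, from 139.8 to 964.6. None of these 5 passed, and their adjusted p lay between 0.418 and 0.902.

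The 16 members that were too dim to be tested, 10 of serpins and 6 of kallikreins, ran from 3.1 to 160.8 on single arrays, with medians over the 8 arrays of 9.55 to 69. They include Klk4, Klk6, both probe sets of Klk8 and Klk1b11 among the kallikreins. Among the serpins they include Serpinc1, which encodes antithrombin, both probe sets of Serpinf1, which encodes pigment epithelium-derived factor, and those of Serpina12, Serpinb2, Serpinb3a and Serpinb5. A second probe set each of Klk1, Serpina6 and Serpinf2, and the Serpinb9e probe set, complete the 16. At these intensities no difference between groups was tested.

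Genes that work with serpins and kallikreins mostly did not pass the F test either. In 9 of 10 lists limma called 0 probe sets. These were plasminogen activation (8 tested, 1 at an unadjusted p under 0.05), coagulation (14 and 3), the contact and kinin system (10 and 4), complement proteases (6 and 0) and granule proteases (11 and 1). The others were cysteine cathepsins and further intracellular targets (8 and 2), germ cell serine proteases (7 and 0), other protease inhibitors (20 and 5) and collagens with their processing enzymes (17 and 5). The median range of group means was 0.62 log2 for the germ cell proteases, against 0.81 over all tested probe sets. In the tenth list, of kallikrein substrates and growth factors, 2 of 3 tested probe sets passed, those of Egf and Agt, both highest in domesticus. Agt, the precursor of angiotensin and itself related to serpins by sequence, read 2556 and 2064 in domesticus and 30 to 89.7 elsewhere.

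In each list with no call, the 2 genes with the widest range are given as values. Hgf, a growth factor activated by proteases, read 118.3 and 136.3 in castaneus and 10.1 to 37.5 elsewhere (limma adjusted p = 0.0512), and S100a10, a plasminogen receptor subunit, read 110.5 to 644.8. For coagulation, F13b read 18.9 to 184.2 and Fgg, a fibrinogen chain, 13.7 to 188.5, and for the complement proteases Cfb read 18.9 to 134.4 and C1ra 37.9 to 331.9. The lowest readings of Hgf and Fgg were below the floor of 18.7, and those of F13b and Cfb were just above it.

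Cpn1, a carboxypeptidase that trims kinins, read 517.7 and 368.3 in musculus and 29.2 to 98.9 elsewhere. Kng1, which encodes the kininogen that kallikreins cleave to release kinins, read 321.8 and 851.2 in castaneus, 352.5 and 640.5 in ssp, 116.1 and 263.2 in musculus and 114.5 and 38.9 in domesticus. The domesticus pair of Kng1 lay below the other 6 arrays.

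Itih2, a chain of a plasma protease inhibitor, read 489.1 and 488.6 in castaneus and 22 to 157.5 elsewhere, and A2m, a broad protease inhibitor, read 14 to 238.2. Among the granule proteases Gzmd read 14.3 to 205.3 and Tpsb2, a mast cell tryptase, 39.2 to 165.8. The cathepsins Ctsb and Ctss read 33.1 to 250.3 and 56.1 to 333.2. The germ cell list had Hpn at 84.3 to 181.4 outside musculus and 21.8 on 1 musculus array, and Pcsk4, a protease of germ cells, at 404 to 1646. In that list 0 of the 7 tested probe sets had both musculus arrays below the other 6. In the collagen list P4ha2, which hydroxylates collagen, read 51.6 to 382.5 and Col1a1 10.4 to 220.8.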

How the data were processed

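The authors deposited a table of 12422 probe sets by 8 arrays, per the labels from testis RNA, whose values are linear intensities; no label or header read here states how probes were summarised or arrays scaled. Trimmed means of 495.6 to 496.7 on every array show a common scaling, and 7.34% to 13% of an array's values lay under the floor. Symbols are those of the platform annotation, and the 44 members with 1 symbol all matched a RefSeq table (GRCm38.p6) by Entrez number with no change of name. limma 3.58.1 in R 4.3.3 was fitted with 1 mean per group to all 8 arrays (4 residual and 2.34 prior degrees of freedom), adjusted by Benjamini-Hochberg over all 8874 tested probe sets, within each pair for the 6 pairs, and tested on simulated data. The number of arrays limits the precision.

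Values on every array are given for members that passed a test, the 8 brightest, the 8 with the widest range and those with several symbols. From each list of related genes, up to 4 that passed or the 2 with the widest range were named; beyond this rule, further members and markers were named where a result turned on them. The members and lists were chosen with earlier results of these data known. Alternatives changed the scaling, floor, filter, variance model, block and arrays. Markers were also listed for Sertoli, peritubular myoid, spermatogonial, spermatid, epididymal, fat, seminal vesicle and prostate, and cytotoxic cells; of these and the other cell lists, limma called 2 Leydig, 1 liver and plasma, 1 fat and 1 gland probe set and 0 in the rest.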

Additional observations from a re-analysis of the deposited data

How the results depend on the processing

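The number of members differing among the 4 groups, 2, was the same with arrays centred on their medians, quantile normalization, an offset of 50 in place of the floor, a filter at the 60th percentile and one-symbol members only, and 3 with a trended and robust variance. It was 1 without a filter and 1 with the replicate number as a block. Leaving out 1 array gave 0 to 1 by limma, with 4 to 12 members at an unadjusted p under 0.05. The number differing in at least 1 pair, 2, was 1 without a filter, 5 with a trended and robust variance, 1 with the block and 0 when each pair was fitted on its own 4 arrays (19 at an unadjusted p under 0.05), and 0 to 1 with 1 array left out (13 to 20 at an unadjusted p under 0.05). The number specific to 1 group, 1, was 0 with median centring, 0 without a filter, 0 with the block and 0 in every fit that left out 1 array, and 2 with the offset of 50, 2 with the filter at the 60th percentile and 2 with a trended and robust variance. The cause was not tested. Calls over all probe sets moved too: by the F test from 156 to 31 without a filter, 42 with the block and 9 to 55 with 1 array left out, and in at least 1 pair from 207 to 70, 98 and 11 to 129, and to 0 with a pair's own arrays; with a trended and robust variance they were 383 and 506. The number of kallikrein probe sets with both musculus arrays below the others, 6, was chosen after the data were seen. It was 6 under each of the 3 other scalings or floors. Leaving out 1 array can only keep or raise this count, so that setting is no check of it. Of the 19 members given on every array by rule, 0 changed direction in the 12 to 15 settings in which each was tested, and other members were not followed. The direction was that from the lowest to the highest group mean of these same data. A change was therefore unlikely, and its absence is weak support.

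Arrays of the same replicate number deviated together only weakly (correlation 0.03 to 0.17 over the 6 pairs of groups, 0.1 or less in 2), so the numbers were not taken to pair the samples. Low signal limits the 16 untested members and every fold near the floor.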
